A study of Mus musculus with 6 samples.

Results

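β-Catenin, encoded by Ctnnb1, and the proteins that work with it in the nucleus were followed in cells of the mouse Isl1 lineage, with and without a stabilised form of β-catenin. The genes were Ctnnb1, its close relative Jup, the DNA-binding TCF/LEF factors Lef1, Tcf7l1 and Tcf7l2, the adaptor Bcl9, the Pygopus genes Pygo1 and Pygo2, and the SP zinc finger factors Sp5 and Sp8. They were chosen by name. Their probe sets, the groups of short oligonucleotides that measure a transcript on the array, were those whose platform annotation names that gene alone. All 10 genes had at least 1 such probe set, and together they had 18 of the 45101 probe sets on the array.

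The 6 arrays measured RNA from embryos at embryonic day 9, labelled as cardiac progenitors. MUT (3 arrays) stands for sorted cells of embryos with Isl1-cre, which makes Cre recombinase in the Isl1 domain, a Rosa-YFP reporter, and a Ctnnb1 allele with loxP sites around exon 3. WT (3 arrays) stands for sorted cells labelled wild type. Cells of both groups were sorted for the YFP signal of the Isl1-cre domain, and the labels do not spell out the alleles that WT embryos carried. The number of embryos behind each sample is not in the labels, and p-values therefore cover the spread of these 6 samples only. In bulk RNA, fewer cells of a type cannot be told apart from less RNA per cell.

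β-Catenin has a role at the membrane, where it links cadherins to the cytoskeleton, and a role in the nucleus, where it carries the canonical Wnt signal. Without a Wnt signal it is phosphorylated at its N terminus and degraded. Exon 3 encodes these phosphorylation sites, so Cre removes them and the protein accumulates. In the nucleus it binds TCF/LEF factors, which otherwise repress their targets together with Groucho/TLE proteins, and it recruits BCL9, which in turn binds Pygopus. Sp5 and Sp8 encode transcription factors induced by Wnt signalling in several embryonic tissues, and Sp5 is among its direct targets. In the second heart field, Wnt signalling is known to affect the expansion and the differentiation of progenitors.

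The promoters of Sp5 and Lef1 are shown because these members had the smallest p-values in the comparison below. They come from RefSeq (GRCm38.p6), and each runs from 250 bases before an annotated transcription start to 50 bases from the start onward. The Sp5 promoter lies on the plus strand at chr2:70474673-70474972, and the capitals mark matches to the TCF/LEF core CTTTGAT and, read on the other strand, to its variant CTTTGTT. The first Lef1 promoter lies on the plus strand at chr3:131110047-131110346, and the capitals mark GGGCGG, the core of a GC box.
Sp5: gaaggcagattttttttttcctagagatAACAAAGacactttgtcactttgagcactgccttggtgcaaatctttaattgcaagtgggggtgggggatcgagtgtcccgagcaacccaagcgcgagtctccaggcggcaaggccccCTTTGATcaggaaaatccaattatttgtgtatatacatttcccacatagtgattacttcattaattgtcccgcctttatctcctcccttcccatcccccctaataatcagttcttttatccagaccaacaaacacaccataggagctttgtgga
Lef1: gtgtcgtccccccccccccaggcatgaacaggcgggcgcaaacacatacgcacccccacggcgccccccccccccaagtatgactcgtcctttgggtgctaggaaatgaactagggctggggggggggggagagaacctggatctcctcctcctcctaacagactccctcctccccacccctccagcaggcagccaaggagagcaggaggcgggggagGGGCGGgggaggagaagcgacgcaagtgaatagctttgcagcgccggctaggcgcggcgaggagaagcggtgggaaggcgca

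The core spelling CTTTGAT, its variant ending in AA (CTTTGAA) and its variant ending in TT (CTTTGTT) were searched on both strands, and none of the printed matches overlaps another. The Sp5 promoter held CTTTGAT, starting 104 bases before the start, and CTTTGTT on the other strand, seen as AACAAAG in this reading, starting 222 bases before it. It held no GGGCGG. The 4 Lef1 windows held none of the 3 cores, and 3 of them held GGGCGG. Over the 19 windows of the 10 members, a core was found in 3, those of Sp5, Sp8 and Tcf7l2 (1 window each). Over all 32851 mouse promoter windows in the RefSeq table, 3.73% held CTTTGAT, 5.14% held the variant CTTTGAA, 5.85% held the variant CTTTGTT and 13.9% held any of the 3, while 35.7% held GGGCGG. A match is a description of the letters and says nothing about binding.

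Correlations of the arrays across genes were 0.985 to 0.987 within MUT, 0.986 to 0.989 within WT and 0.979 to 0.987 between MUT and WT. MUT array 1 stood apart, at 1.21 on the first principal component against 33.0 and 29.4 for the other MUT arrays and −21.6 to −20.5 for the WT arrays. The mean of 4 Y-linked genes was 8.09 to 9.12 on the MUT arrays and 9.08, 3.33 and 3.43 on WT arrays 1, 2 and 3, so Y-linked signal was uneven between the groups. The X-linked transcript Xist read 12.13, 7.54 and 12.44 on MUT arrays 1, 2 and 3. On WT arrays 1, 2 and 3 Xist read 5.46, 12.63 and 12.79. MUT arrays 1 and 3 therefore had high values of both Xist and the Y-linked genes. Of 13 markers of Isl1-lineage heart progenitors and myocardium, 12 had a mean above the array background of 4.85, the 95th percentile of the bacterial control probe sets. The exception was Nkx2-5, an early cardiac factor. Of the 13, 9 had lower values in MUT, and groups did not overlap for 4, all with MUT lower, against 9.18% of all genes. Nkx2-5, with its mean below background, was among these 4. The median difference of the 13 was −0.29, with list means of 7.61 to 7.87 on the MUT arrays and 7.98 to 8.27 on the WT arrays. The 4 with higher values were Tbx1 (0.41) and Fgf8 (0.47), regulators of the second heart field, and Mef2c (0.03) and Fgf10 (0.01). The smallest p-values of the list belonged to Tnnt2 (−0.76) and Tbx20 (−0.94), both lower in MUT. None of the 13 passed. Isl1 itself stood at 8.27 in MUT and 9.46 in WT, a difference that did not pass (−1.18, limma adjusted p = 0.269).

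The question for each member was whether its transcript differed between MUT and WT cells. Sp5 stood higher in MUT by 1.23 on the log2 scale, Lef1 higher by 0.41 and Tcf7l2 lower by 0.32, and for these 3 genes the MUT and WT arrays did not overlap. The transcript of β-catenin itself differed by −0.00, with a 95% interval of −0.26 to 0.26. None of the 10 members passed limma's test at an adjusted p under 0.05 over all 18193 genes, in either direction; over all genes 0.066% passed as higher in MUT and 0% as lower. The members with an unadjusted p under 0.05 were 2, Sp5 and Lef1, against 11.6% of all genes. Groups did not overlap for 3 of the 10 members, 2 with MUT higher and 1 with MUT lower, against 17.8% of all genes (8.64% with MUT higher and 9.18% with MUT lower). The members' median difference was −0.06, and that of all genes −0.03, with 4 of 10 members and 44.7% of all genes having higher values in MUT.

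**Figure D1:**
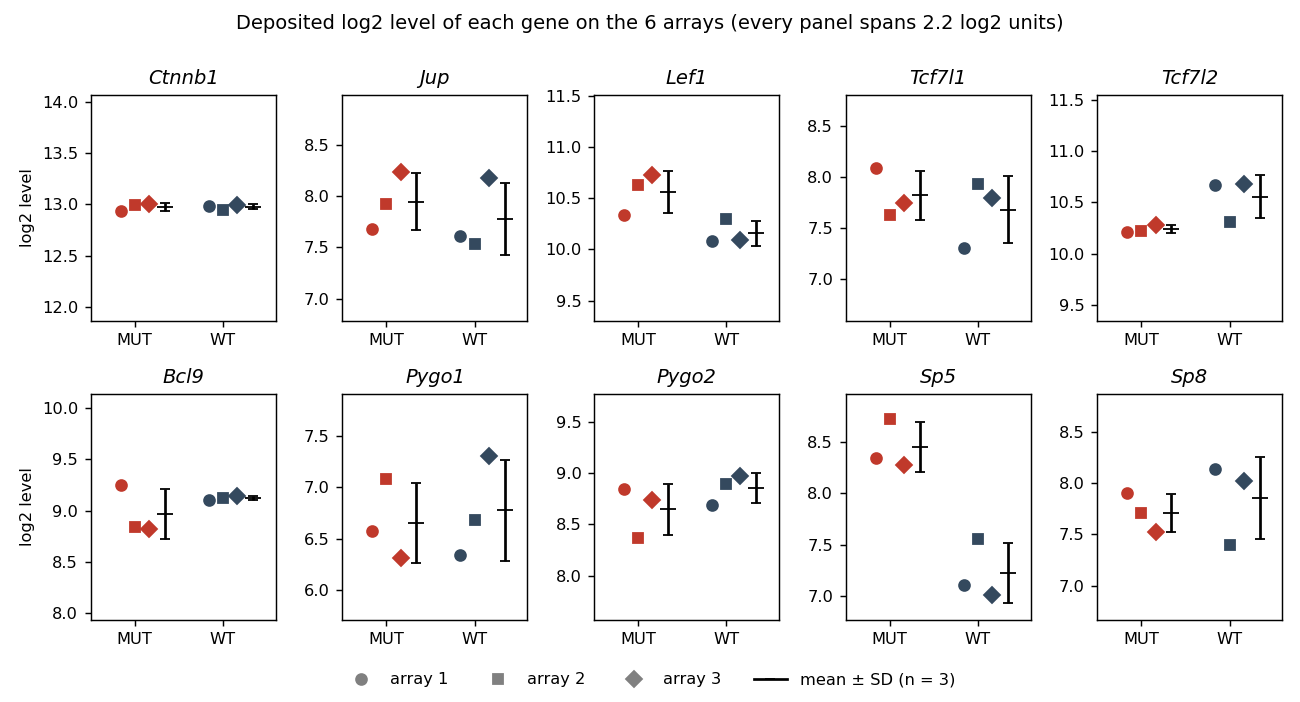
Deposited log2 level (vertical axis, each panel spanning 2.2 log2 units) of the 10 genes on the 3 MUT arrays (red, left) and the 3 WT arrays (dark blue, right), with the mean ± SD beside the points. The MUT points lie above all WT points for Sp5 and Lef1 and below them for Tcf7l2, and Ctnnb1 is flat across all 6 arrays.

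Ctnnb1, the gene that carries the loxP sites, was read by 3 probe sets. The one with the highest mean, which stands for the gene, read 12.93, 12.99 and 13.00 on MUT arrays 1, 2 and 3 and 12.99, 12.95 and 13.00 on WT arrays 1, 2 and 3. The arrays of both groups were interleaved. Its difference was −0.00 (SE 0.11, 95% interval −0.26 to 0.26, limma adjusted p = 0.996). The other probe sets differed by 0.05 and 0.13, again with overlapping groups (limma adjusted p = 0.931 and 0.733 over all single-gene probe sets). Cre removes exon 3 from the allele, and so from its transcript. The position of the probe sets relative to exon 3 was not analysed here, so these levels do not check the genotype.

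Jup encodes plakoglobin, the armadillo protein of desmosomes that can also bind TCF/LEF factors. It read 7.68, 7.92 and 8.24 on the MUT arrays and 7.61, 7.53 and 8.18 on the WT arrays. Array 3 was the highest in each group, and the groups overlapped. The difference was 0.17 (SE 0.22, 95% interval −0.34 to 0.68, limma adjusted p = 0.781). Leaving out MUT array 3 gave 0.03, and leaving out WT array 3 gave 0.37. By Affymetrix naming, the suffix of Jup's only probe set marks probes that may be shared with other transcripts, so its level is uncertain.

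Lef1, the TCF/LEF factor usually linked to activation, read 10.33, 10.63 and 10.73 on the MUT arrays and 10.08, 10.29 and 10.09 on the WT arrays. The lowest MUT array, array 1, lay just above the highest WT array. The difference was 0.41 (SE 0.15, 95% interval 0.06 to 0.75), a ratio of 1.33, with limma adjusted p = 0.378. A separate probe set read 7.22, 7.60 and 7.28 on the MUT arrays and 6.91, 6.70 and 6.46 on the WT arrays. Here too the groups did not overlap, and the difference was 0.67 (adjusted p = 0.264 over all single-gene probe sets). Both Lef1 probe sets were therefore higher on every MUT array, by unequal amounts. With the Y-linked mean as a covariate the brighter probe set gave 0.45 (limma adjusted p = 0.571). That mean was low only on WT arrays 2 and 3, so this covariate cannot be fully separated from group.

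Tcf7l1, a TCF factor best known as a repressor, read 8.09, 7.63 and 7.74 on the MUT arrays and 7.31, 7.93 and 7.80 on the WT arrays. WT array 1 was the lowest of the 6 and MUT array 1 the highest. The difference was 0.14 (SE 0.20, 95% interval −0.33 to 0.61, limma adjusted p = 0.807), it was −0.04 without WT array 1, and the other probe set gave 0.21. The groups overlapped at both probe sets.

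Tcf7l2, a TCF factor that can activate or repress depending on its isoform and partners, gave different answers at its 4 probe sets. The brightest read 10.21, 10.22 and 10.28 on the MUT arrays and 10.67, 10.31 and 10.68 on the WT arrays. The MUT arrays were tightly grouped below the WT arrays, of which array 2 came close. The difference was −0.32 (SE 0.14, 95% interval −0.65 to 0.01, limma adjusted p = 0.451). The other probe sets gave −0.05, 0.04 and 0.05, all with overlapping groups, and the first of these is annotated to the same sequence record as the brightest. In that order their MUT means were 5.35, 6.43 and 8.86, against 10.24 for the brightest. The first thus lay near the array background of 4.85, where a difference is hard to see. A lower value without overlap was seen at 1 of 4 probe sets, and the mean of the 4, unequal in level, gave −0.07.

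Bcl9, the adaptor between β-catenin and Pygopus, read 9.25, 8.84 and 8.82 on the MUT arrays and 9.11, 9.12 and 9.14 on the WT arrays. The WT arrays lay close together, and the MUT arrays lay on both sides of them, with array 1 above and arrays 2 and 3 below. The difference was −0.15 (SE 0.15, 95% interval −0.50 to 0.20, limma adjusted p = 0.710), and −0.29 without MUT array 1. A separate Bcl9 probe set gave −0.10.

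The Pygopus genes encode PHD finger proteins that bind methylated histone H3 and BCL9. Pygo1 read 6.58, 7.08 and 6.31 on the MUT arrays and 6.34, 6.68 and 7.30 on the WT arrays. Within each group this was the widest spread among the members, and the groups overlapped (difference −0.12, SE 0.29, 95% interval −0.79 to 0.55, limma adjusted p = 0.891). Without WT array 3 the Pygo1 difference was 0.14. Pygo2 read 8.84, 8.37 and 8.73 on the MUT arrays and 8.69, 8.90 and 8.97 on the WT arrays. MUT array 2 was its lowest, and the groups overlapped (difference −0.20, SE 0.16, 95% interval −0.59 to 0.18, limma adjusted p = 0.645). Without MUT array 2 the Pygo2 difference was −0.0642.

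Sp5 had the largest difference of the members in either direction. It read 8.35, 8.73 and 8.28 on the MUT arrays and 7.11, 7.56 and 7.01 on the WT arrays. Every MUT array was above every WT array, and MUT array 1, which lay between the groups over all genes, was close to the other MUT arrays here. The mean was 8.45 ± 0.24 in MUT and 7.22 ± 0.29 in WT (SD, n = 3 each), a difference of 1.23 (SE 0.19, 95% interval 0.77 to 1.68) and a ratio of 2.34 (95% interval 1.71 to 3.21). Sp5 ranked 43rd by p among the 18193 genes, with limma adjusted p = 0.126 and an unadjusted p of 0.000307. Leaving out any single array gave differences of 1.09 to 1.39 and adjusted p-values of 0.0924 to 0.315. With the Y-linked mean as a covariate, which cannot be fully separated from group, the Sp5 difference was 1.29 (limma adjusted p = 0.375).

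Sp8, a related zinc finger factor with roles in limb and brain outgrowth, read 7.90, 7.70 and 7.53 on the MUT arrays and 8.14, 7.39 and 8.02 on the WT arrays. WT array 2 was the lowest of the 6 and the other WT arrays the highest, so the groups overlapped. The difference was −0.14 (SE 0.22, 95% interval −0.65 to 0.36, limma adjusted p = 0.820), and 0.00 without WT array 1. The 95% intervals of the Sp5 and Sp8 differences did not meet, and the difference between the pair was not tested.

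**Figure D2:**
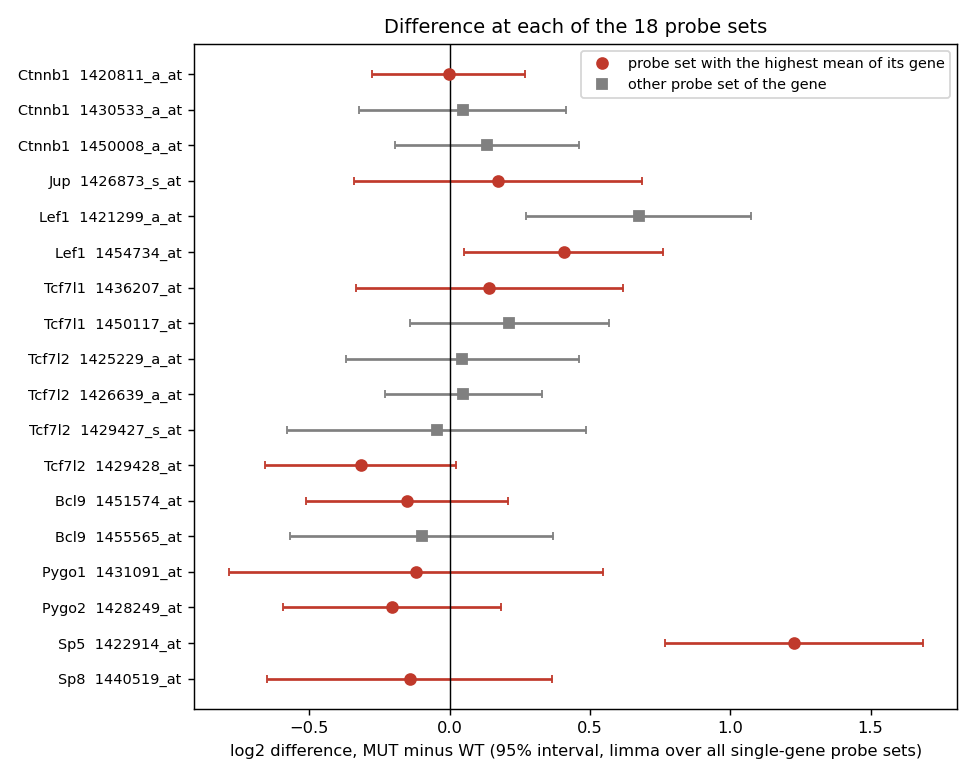
Log2 difference, MUT minus WT (horizontal axis), with its 95% interval from the limma fit over all single-gene probe sets, for each of the 18 probe sets of the 10 genes. Red circles mark the probe set with the highest mean of its gene and gray squares the others. The intervals of Sp5 and of both Lef1 probe sets lie above 0, and all others include 0.

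Counted by probe set, 10 of the 18 had higher values in MUT and 8 lower, with a median of 0.05 against −0.03 over all 34945 single-gene probe sets. None of the 18 passed limma's test over all single-gene probe sets, where 0.0229% passed as higher and 0% as lower. Those with an unadjusted p under 0.05 were 3, Sp5 and both Lef1 probe sets, against 11.4% of all. Groups did not overlap for 4 of them, 3 with MUT higher and 1 with MUT lower, against 17.5% of all (8.45% with MUT higher and 9.04% with MUT lower). All 18 had means above the array background.

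The genes whose pattern over the 6 arrays lay closest to that of Sp5, by root mean square distance after each gene was centred on its own mean, were Fmod (a small matrix proteoglycan) at 0.11, Cldn9 (a tight junction claudin) at 0.14 and Sox18 (an endothelial SOX factor) at 0.14. Their differences were 1.23, 1.19 and 1.14, none of which passed (limma adjusted p = 0.0752, 0.189 and 0.214). Over the alternative settings described below, Fmod ran from 0.35 to 1.39, Cldn9 from 0.75 to 1.48 and Sox18 from 0.96 to 1.41. Closest to Lef1 were Plcb3 (a phospholipase C) at 0.04, 1700007L15Rik at 0.04 and Znrf3 (a ubiquitin ligase that removes Wnt receptors and is itself a Wnt target) at 0.05. Their differences were 0.39, 0.41 and 0.33, and none passed. The genes were picked for closeness on these same arrays, so differences near those of Sp5 and Lef1 follow from the choice. With only 6 arrays many genes can share a pattern.

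Other genes of the pathway were described from lists by role. Of 24 measured Wnt target genes outside the members, 19 had higher values in MUT, with a median difference of 0.60, or 0.39 over all their probe sets. Apcdd1, which encodes an inhibitor of Wnt signalling at the membrane, rose and was the only one of them to pass (difference 1.82, limma adjusted p = 0.0371). Its 6 probe sets ran from 0.35 to 2.51. By Affymetrix naming, the suffix of the Apcdd1 probe set that stands for the gene marks probes that may be shared with other transcripts. Apcdd1 read 11.07, 11.57 and 11.33 on the MUT arrays and 9.56, 9.39 and 9.56 on the WT arrays, so that the groups lay far apart. The call was lost when MUT array 2 or 3 or any WT array was left out (adjusted p = 0.152, 0.179, and 0.104, 0.134 and 0.1 for WT arrays 1, 2 and 3), while the difference stayed between 1.70 and 1.94. It was also lost with the replicate number as a block (limma adjusted p = 0.0872), with the mean of probe sets (0.0869), with the most variable probe set (0.216) and with the Y-linked mean as a covariate (0.164). The secreted antagonist Dkk1 stood at 1.31 (adjusted p = 0.0881; 0.0372 without MUT array 1) and the homeobox gene Msx2 at 0.83 (adjusted p = 0.133), or 0.50 as the mean of its 2 probe sets, which ran from 0.18 to 0.83. Groups did not overlap, with MUT higher, for 12 of the 24, against 8.64% of all genes.

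Beside them, the genes that hold β-catenin in check or work with it had medians near 0. The 20 genes of its destruction and turnover had a median of −0.04, ran from −0.25 to 0.20 and gave no call. Their smallest p-values belonged to Dvl3, which relays the Wnt signal to the destruction complex (−0.25, limma adjusted p = 0.491), Fbxw11, a subunit of the ubiquitin ligase that recognises phosphorylated β-catenin (0.15), and the kinase Gsk3a (0.20). Another 29 nuclear cofactors and corepressors, among them Bcl9l and the TLE genes, had a median of −0.04, and none passed. Hipk2, a nuclear kinase that can phosphorylate TCF/LEF factors, was the member of this list with the smallest p (10.66 in MUT and 11.32 in WT, difference −0.65, limma adjusted p = 0.232), with all MUT arrays below all WT arrays, and its 8 probe sets ran from −0.65 to −0.32. The ATPases Ruvbl2 and Ruvbl1, which bind β-catenin, stood at 0.20 and −0.20.

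Among 10 other SP and KLF factors none passed, and the median was 0.11, or 0.00795 without MUT array 2. Sp6, an epithelial SP factor, read 7.89, 8.49 and 8.78 on the MUT arrays and 7.06, 7.14 and 6.53 on the WT arrays. Its groups did not overlap (difference 1.48, limma adjusted p = 0.140, and 0.0439 without MUT array 1), but its 4 probe sets ran from −0.32 to 1.48. Klf2 stood at −0.64 and Klf6 at 0.37.

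The junction partners of β-catenin and plakoglobin were not called either. Of 12 adherens junction genes 11 had higher values in MUT, with a median of 0.41, or 0.18 over all their probe sets. All MUT arrays lay above all WT arrays for 5 of them, against 8.64% of all genes. The 3 with the smallest p were Ctnna2, the neural form of the α-catenin that binds β-catenin (6.77, 6.66 and 6.86 on the MUT arrays and 5.92, 5.67 and 5.61 on the WT arrays, difference 1.03, limma adjusted p = 0.0752), the adhesion receptor Nectin2 (0.79) and the δ-catenin Ctnnd2 (0.78). Probe sets of Nectin2 ran from 0.11 to 0.79 and those of Ctnnd2 from 0.06 to 0.78. The desmosome list held 8 genes, of which Des (0.09) encodes desmin, a muscle filament protein and not a desmosome protein. The list median, Des included, was 0.15, with Pkp2 at 0.58, Dsg2 at 0.42 and Pkp3 at −0.24, and none passed. That median ran from −0.00879 without WT array 1 to 0.34 without MUT array 1. Without MUT array 3 Dsg2 stood at 0.15 and Pkp2 at 0.36, and without MUT array 1 Pkp3 stood at −0.0711.

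**Figure D3:**
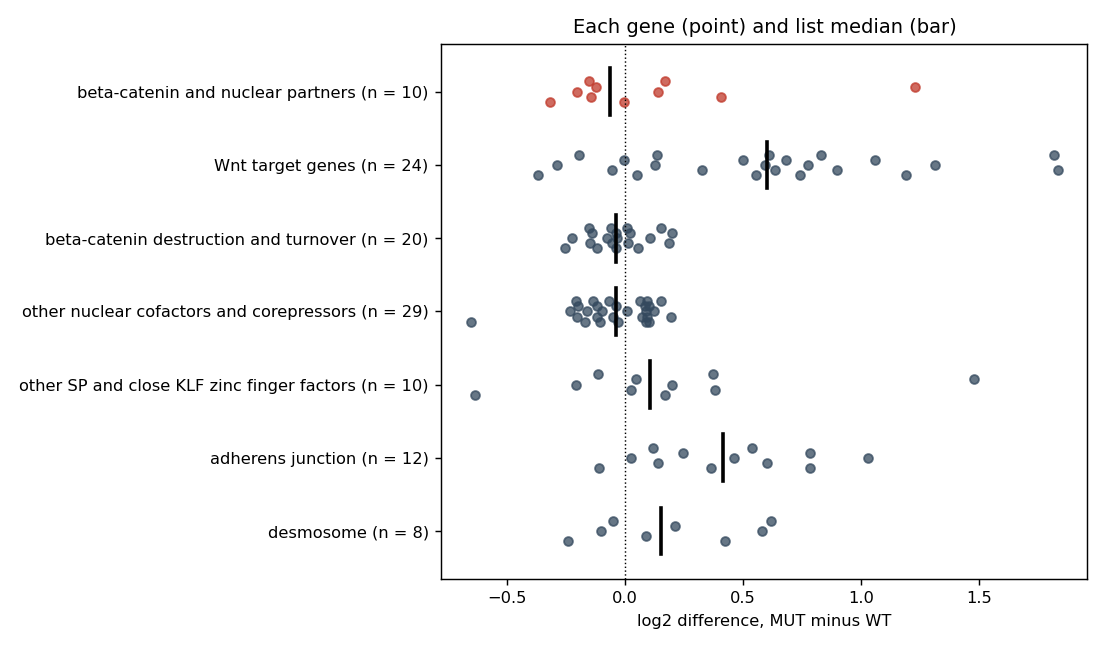
Log2 difference, MUT minus WT (horizontal axis), of each gene (points) in the member list (red) and 6 pathway lists (dark blue), with the list median as a black bar. The median lies at 0.60 for Wnt target genes and 0.41 for adherens junction genes, and at −0.06 for β-catenin and its nuclear partners, where Sp5 stands at 1.23.

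Markers of other cell types also had different values on the MUT and WT arrays. All 11 endothelial markers had higher values in MUT, with list means of 7.95 to 8.23 on the MUT arrays and 6.88 to 7.66 on the WT arrays, and groups that did not overlap for 8, against 8.64% of all genes. All 10 markers of surface ectoderm and epithelium had higher values in MUT, with list means, relative to the WT mean, of 0.40 to 1.41 on the MUT arrays and −0.28 to 0.31 on the WT arrays. Of 8 neural crest markers 6 had higher values in MUT, with list means of 8.63 to 8.98 on the MUT arrays and 8.23 to 8.42 on the WT arrays. Of 9 posterior and paraxial mesoderm markers 7 had higher values in MUT, with overlapping list means of 5.68 to 6.33 on the MUT arrays and 5.32 to 5.83 on the WT arrays, and 6 of the 9 had means above background. Of 9 markers of neurons and neural tube 8 had lower values in MUT, with list means of 9.32, 8.19 and 8.31 on MUT arrays 1, 2 and 3 and 9.14 to 9.68 on the WT arrays. All 7 primitive erythroid markers had lower values in MUT, with a median difference of −0.30 and overlapping list means of 9.46 to 10.60 on the MUT arrays and 10.14 to 10.80 on the WT arrays. Of 8 markers of visceral and gut endoderm 7 had lower values in MUT, with a median difference of −0.93 and overlapping list means of 6.05 to 7.503 on the MUT arrays and 6.66 to 8.44 on the WT arrays. None of these markers passed over all genes, and their part in the values of Sp5 and Lef1 was not tested. The posterior mesoderm list shares genes with the Wnt target list. The endothelial and surface ectoderm lists each share a gene with the adherens junction list. Since the endothelial and endoderm lists also share a gene, these lists are not independent.

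**Figure D4:**
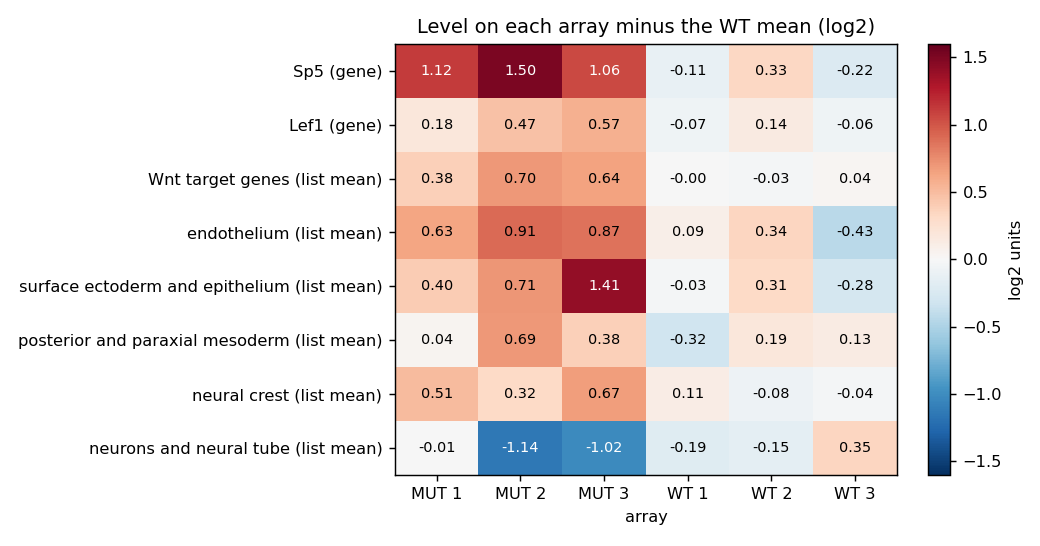
Level on each array minus the WT mean (log2, colour and printed value) for Sp5, Lef1, the Wnt target list and 5 marker lists, with MUT arrays on the left and WT arrays on the right. Sp5 stands at 1.06 to 1.504 on the MUT arrays and −0.22 to 0.33 on the WT arrays. Within WT, array 2 is the highest for Sp5, Lef1 and the endothelial, surface ectoderm and posterior mesoderm means. That array is the lowest WT array for the Wnt target and neural crest means, and lies between the others for neurons and neural tube.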

How the data were processed

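RNA from 3 MUT and 3 WT samples had been amplified, biotin-labelled and hybridised to Affymetrix arrays, per the labels. The deposited values are log2 levels, 1 per probe set and array; the authors' background correction, summarisation and normalization are not stated by the labels. That scale was read from the values (1.89 to 15.07, array medians 6.47 to 6.50), and they were used without further scaling. The number of arrays limits the precision.

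Probe sets were named through the platform annotation and renamed by gene ID after a RefSeq gene table (34741 of 34945 single-gene probe sets matched). The probe set with the highest mean stood for a gene. MUT and WT were compared over all 18193 genes with limma 3.58.1 in R 4.3.3 (lmFit, eBayes, group only, two-sided, Benjamini-Hochberg adjusted p under 0.05). All adjusted p-values come from limma, over all genes unless all single-gene probe sets are named. Differences are MUT minus WT (log2) with limma's moderated standard errors (SE) and 95% intervals. The fit was also run on arrays simulated from its own gene means and spreads, which cannot show how well it works on these arrays. Genes named are the members, the 3 of each pathway list with the smallest p and the 3 nearest to the 2 members with the smallest p. Isl1, Nkx2-5, Tbx1, Fgf8, Mef2c, Fgf10, Tnnt2 and Tbx20 were picked with their values known. The members and lists were chosen with earlier results of these data known.

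Alternative settings were a block for replicate number, quantile normalization, median centring, leaving out the dimmest 40% of genes, other choices of probe set, a trended robust prior, array weights, a Y-linked covariate, leaving out single arrays and an adjusted p threshold of 0.01. Listed genes with no probe set naming them alone, Tcf7 among them, were not analysed here.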

Additional observations from a re-analysis of the deposited data

How the results depend on the processing

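No member passed in any of the 16 other settings of the gene fit, nor with every probe set tested; the smallest adjusted p was 0.084, for Sp5 without the dimmest 40% of genes. The count of genes called higher over the whole array, 12 as reported, was 6 with median centring and with every probe set tested, 1 with the most variable probe set, the mean of probe sets or the Y-linked covariate, 0 at a threshold of 0.01, and 0 to 81 with 1 array left out, the 81 without MUT array 1; genes called lower numbered 0 to 11 with 1 array left out. With the replicate block the count called higher was 0, and the block changed no call of a member (Sp5 limma adjusted p = 0.102). Same-numbered arrays deviated from their group means with correlations of 0.11, −0.08 and −0.02. Whether same-numbered arrays were handled together was not tested. The members' median, −0.06 as reported, was 0.0858 with the Y-linked covariate, 0.0457 with every probe set and −0.0850 to 0.0759 with 1 array left out. Sp5, Lef1, Jup, Tcf7l2, Bcl9 and Pygo2 kept their sign in the 16 other settings of the gene fit, though 2 of the 4 Tcf7l2 probe sets were above 0. The differences near 0 changed sign: Ctnnb1 was 0.0465 with the most variable probe set, 0.0594 with the mean of probe sets, 0.00368 with array weights and −0.0166 to 0.0192 with 1 array left out, Pygo1 was 0.19 with the Y-linked covariate and −0.34 to 0.14 with 1 array left out, and with 1 array left out Tcf7l1 was −0.0421 to 0.27 and Sp8 −0.37 to 0.000637. With the Y-linked covariate Tcf7l1 was 0.48, Sp8 −0.38 and Pygo2 −0.0319. Apcdd1 no longer passed with the replicate block (adjusted p = 0.0872), the most variable probe set (0.216), the mean of probe sets (0.0869) or the Y-linked covariate (0.164), nor at a threshold of 0.01, and Fbxw11 was −0.23 with the most variable probe set. The Wnt target median was 0.39 with every probe set and the adherens junction median 0.18, or 0.25 with the mean of probe sets; the SP and KLF median was 0.23 with the most variable probe set, and the desmosome median 0.47 with the Y-linked covariate and 0.32 without the dimmest 40% of genes. The cause of these shifts was not tested.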
